A study of Mus musculus with 12 samples.

Results

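The genes described here are 10 mouse genes of peroxide removal: the glutathione peroxidase genes Gpx1, Gpx3, Gpx4, Gpx7 and Gpx8, the transcription factor gene Nfe2l2 (Nrf2), and the Nrf2 target genes Nqo1, Gclm, Srxn1 and Txnrd1. They were chosen by symbol, and all 10 were found among the 35697 genes of the table with sham and TBI mice and among the 55637 of the table with zileuton. The study sequenced poly(A) RNA from pericontusional brain tissue of adult male C57BL/6J mice of 20 to 25 g. Traumatic brain injury (TBI) was made by controlled cortical impact, in which a driven tip compresses the exposed cortex, and sham mice had the same surgery without the impact. The labels give 4 groups of 3 mice in 2 dated batches: sham and TBI at 7 days in 2018, and TBI at 7 days and TBI with zileuton in 2022. Zileuton, an inhibitor of 5-lipoxygenase, was injected intraperitoneally in corn oil at 10 mg/kg a day after the impact. The study calls the 2022 TBI mice vehicle-treated, whereas their labels say only that they were injured. The zileuton labels name day 7, 8 and 9 in one field and day 7 in the library names. No sham mice were sequenced in 2022, so both groups of that batch were injured.

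Glutathione peroxidases such as those of Gpx1, Gpx3 and Gpx4 reduce hydrogen peroxide and lipid peroxides at the expense of glutathione. Gpx1 encodes the cytosolic and mitochondrial enzyme, Gpx3 the secreted one found in plasma, and Gpx4 the one that reduces peroxidised phospholipids within membranes and restrains ferroptosis. Gpx7 and Gpx8 encode members of the endoplasmic reticulum. Nrf2 is held in the cytosol by Keap1, which passes it to the proteasome. Under oxidative or electrophilic stress it escapes, pairs with small Maf proteins and binds antioxidant response elements near genes such as Nqo1, a quinone reductase, and Gclm, the modifier subunit of the enzyme that starts glutathione synthesis. Srxn1, sulfiredoxin, repairs overoxidised peroxiredoxins, and Txnrd1, cytosolic thioredoxin reductase, keeps thioredoxin reduced.

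The 5 glutathione peroxidase genes differ at the codon of the catalytic residue, which is shown, with that of Txnrd1, because it separates the selenium-dependent enzymes from the others. In the reference coding sequences (GENCODE M21) Gpx1, Gpx3 and Gpx4 carry an in-frame TGA, read as selenocysteine, at codons 47, 73 and 129. The coding sequences of Gpx7 and Gpx8 have no in-frame TGA, and a cysteine codon stands at the matching place, at codons 56 and 79. In Txnrd1 the TGA is codon 612 of 613. All codon numbers are from the longest coding sequence of each gene, 1 of 3 for Gpx4 and 1 of 4 for Txnrd1, and can differ in the others. The stretches around these codons are given 5′ to 3′ with the codon in capitals.
Gpx1: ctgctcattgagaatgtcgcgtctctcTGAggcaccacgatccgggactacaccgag
Gpx3: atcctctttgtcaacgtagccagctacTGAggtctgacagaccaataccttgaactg
Gpx4: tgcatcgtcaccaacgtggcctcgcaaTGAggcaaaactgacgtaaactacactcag
Gpx7: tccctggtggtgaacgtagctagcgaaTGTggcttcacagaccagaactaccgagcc
Gpx8: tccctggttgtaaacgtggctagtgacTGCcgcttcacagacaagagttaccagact
Txnrd1: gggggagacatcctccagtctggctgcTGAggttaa
Over these 57 bases Gpx7 and Gpx8 shared 43 bases, and every other pair of the 5 peroxidase genes shared 25 to 34.

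After TBI, 7 of the 10 genes were higher than in sham mice and none was lower. These were Gpx1, Gpx3, Gpx7, Gpx8, Nfe2l2, Nqo1 and Txnrd1, with log2 fold changes from 0.32 to 1.69. Gpx4, Gclm and Srxn1 did not pass the test (adjusted p = 0.428, 0.174 and 0.946, edgeR quasi-likelihood test). The test was edgeR's quasi-likelihood test on the counts, with Benjamini-Hochberg adjustment over all 19536 genes tested and a threshold of 0.05. By this test 28.0% of all genes tested differed after TBI, with 16.8% of all genes higher and 11.2% lower. The median log2 fold change was 0.71 over the 10 genes against 0.02 over all genes. The 10 genes were chosen with earlier results of these data known, so their excess over all genes is not independent evidence. In 8 of the 10 genes every TBI mouse was above every sham mouse in CPM (counts scaled for library size), which held for 24.6% of all genes. Gpx3 and Gpx7 were listed by the study from these samples, so their direction is not independent evidence. The study also reported a rise of both genes by real-time PCR, at earlier times after the impact than in these samples. Whether the mice of a group came from separate litters or cages is not given, and p-values measure only the spread between these mice.

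**Figure D1:**
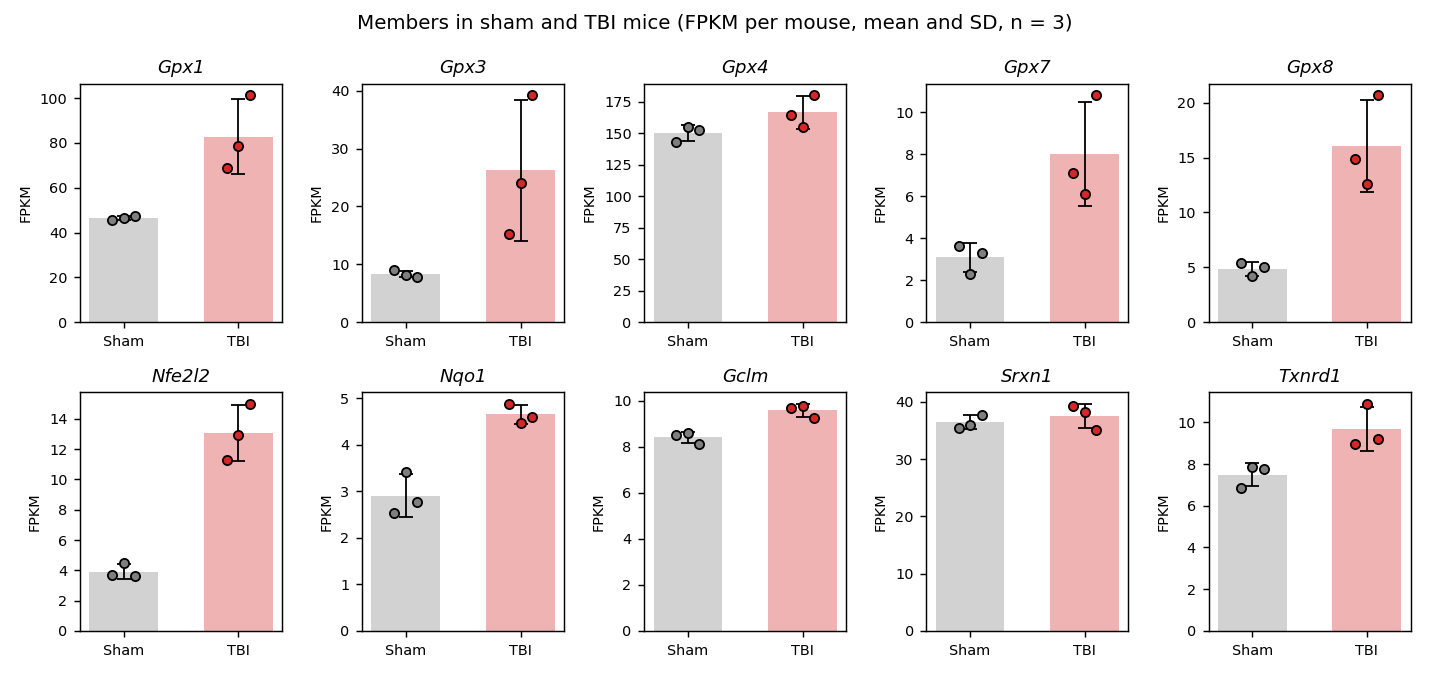
Level of each of the 10 genes in FPKM (counts scaled for gene length and library total, vertical axes from 0) in 3 sham and 3 TBI mice; points are mice, bars are means and error bars are SD. The TBI mice lie above the sham mice in every panel except Gpx4 and Srxn1, and Gpx3 runs from 15.3 to 39.3 FPKM among the TBI mice.

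Nfe2l2 (ENSMUSG00000015839), the gene of Nrf2 itself, had the largest estimate of the 10, next to Gpx8. Its level was 3.67, 4.47 and 3.60 FPKM in the sham mice and 11.3, 12.9 and 15.0 FPKM in the TBI mice. The groups were far apart, and the TBI mice differed little among themselves. The fold change was 3.22 (95% interval 2.62 to 3.97), a log2 fold change of 1.69 with a standard error of 0.132 (adjusted p = 4.24e-05, edgeR quasi-likelihood test).

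The target genes moved less, and the 95% intervals of all 4 lay below that of Nfe2l2. Nqo1 (ENSMUSG00000003849) was at 2.54, 3.41 and 2.78 FPKM in sham mice and at 4.88, 4.47 and 4.60 FPKM in TBI mice. The lowest TBI mouse was above the highest sham mouse, and the log2 fold change was 0.63 with a standard error of 0.165 (adjusted p = 0.0217, edgeR quasi-likelihood test). The call for Nqo1 rested on few counts, 182 to 369 per mouse, and it was lost in 3 of the 6 fits that each left out 1 mouse (log2 fold change 0.53 to 0.73). Without sham mouse 1, sham mouse 3 or TBI mouse 1 its adjusted p was 0.0760, 0.0793 and 0.0611 by the same edgeR test.

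Txnrd1 (ENSMUSG00000020250) was at 6.85, 7.87 and 7.74 FPKM in sham mice and at 8.96, 10.9 and 9.19 FPKM in TBI mice. The groups did not overlap, though the gap between them was narrow. Its log2 fold change was 0.32 with a standard error of 0.0907 (adjusted p = 0.0300, edgeR quasi-likelihood test). The call was lost without sham mouse 1 (adjusted p = 0.124), sham mouse 2 (0.0646), sham mouse 3 (0.0790) or TBI mouse 2 (0.0835) by the same edgeR test. It was also lost with trends of gene length and GC content removed (adjusted p = 0.0566, edgeR) and by the equal-variance test (0.106). Limma on log2(FPKM + 1) without a filter lost it too (adjusted p = 0.0712). The gene contains Eid3 on the same strand, which had at most 14 counts in any library of this batch.

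Gclm (ENSMUSG00000028124) was at 8.51, 8.57 and 8.11 FPKM in sham mice and at 9.69, 9.78 and 9.24 FPKM in TBI mice. Here too the groups did not overlap, and the difference was small, with a log2 fold change of 0.14 (95% interval −0.02 to 0.29, adjusted p = 0.174, edgeR quasi-likelihood test). Gm17494, which overlaps Gclm on the opposite strand, had 110 to 212 counts against 2461 to 2969 for Gclm. Srxn1 (ENSMUSG00000032802) was at 35.4, 36.1 and 37.8 FPKM in sham mice and at 39.2, 38.3 and 35.1 FPKM in TBI mice. Its groups overlapped, and its log2 fold change of −0.01 (95% interval −0.17 to 0.15) was 0.04 when libraries were scaled by their totals alone. The upper ends of the intervals were 1.22-fold for Gclm and 1.11-fold for Srxn1. Gclm passed the threshold when trends with gene length and GC content were removed (log2 fold change 0.23, adjusted p = 0.0272, edgeR) and by an equal-variance two-sided test on FPKM (adjusted p = 0.0431).

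Of the glutathione peroxidases, Gpx8 (ENSMUSG00000021760) and Gpx3 (ENSMUSG00000018339) had the largest changes. Gpx8 was at 5.39, 4.18 and 5.04 FPKM in sham mice and at 14.9, 12.6 and 20.7 FPKM in TBI mice. The groups were well separated, and the fold change was 3.19 (95% interval 2.30 to 4.42, log2 fold change 1.67, standard error 0.208, adjusted p = 0.000537, edgeR quasi-likelihood test). Cdc20b, which overlaps Gpx8 on the opposite strand, had at most 19 counts in a library against 206 to 932 for Gpx8.

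Gpx3 was at 8.98, 8.17 and 7.87 FPKM in sham mice and at 15.3, 24.2 and 39.3 FPKM in TBI mice. Sham mice were close together, whereas TBI mouse 3 was far above TBI mouse 1. The fold change was 3.04 (95% interval 1.92 to 4.80, log2 fold change 1.60, standard error 0.290, adjusted p = 0.00388, edgeR quasi-likelihood test). Its lowest value among the fits without 1 mouse was a log2 fold change of 1.17.

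Gpx7 (ENSMUSG00000028597) was at 3.65, 2.31 and 3.28 FPKM in sham mice and at 7.11, 6.10 and 10.8 FPKM in TBI mice. All TBI mice were above all sham mice, and TBI mouse 3 was again the highest. The fold change was 2.51 (95% interval 1.67 to 3.79, log2 fold change 1.33, standard error 0.261, adjusted p = 0.00583, edgeR quasi-likelihood test).

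Gpx1 (ENSMUSG00000063856) was at 45.4, 46.6 and 47.5 FPKM in sham mice and at 68.6, 78.6 and 101 FPKM in TBI mice. The sham mice were nearly equal and the TBI mice spread in the same order as for Gpx3. The fold change was 1.72 (95% interval 1.40 to 2.12, log2 fold change 0.78, standard error 0.133, adjusted p = 0.00287, edgeR quasi-likelihood test). Gpx1, Gpx3, Gpx7 and Gpx8 stayed past the threshold in each of the 6 fits that left out 1 mouse, with adjusted p-values of at most 0.0237 by edgeR. They did not pass by the equal-variance test on FPKM, with adjusted p-values of 0.0554 to 0.159.

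Gpx4 (ENSMUSG00000075706) was at 143, 155 and 152 FPKM in sham mice and at 165, 155 and 180 FPKM in TBI mice. The groups overlapped, and the log2 fold change was 0.10 (95% interval −0.09 to 0.29, adjusted p = 0.428, edgeR quasi-likelihood test). It was −0.03 when trends with gene length and GC content were removed. Reads of Gpx4 are uncertain, because the pseudogene Gpx4-ps2 took 13.9% to 15.6% of the counts of both in this batch and 0.0651% to 0.356% in the 2022 batch.

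**Figure D2:**
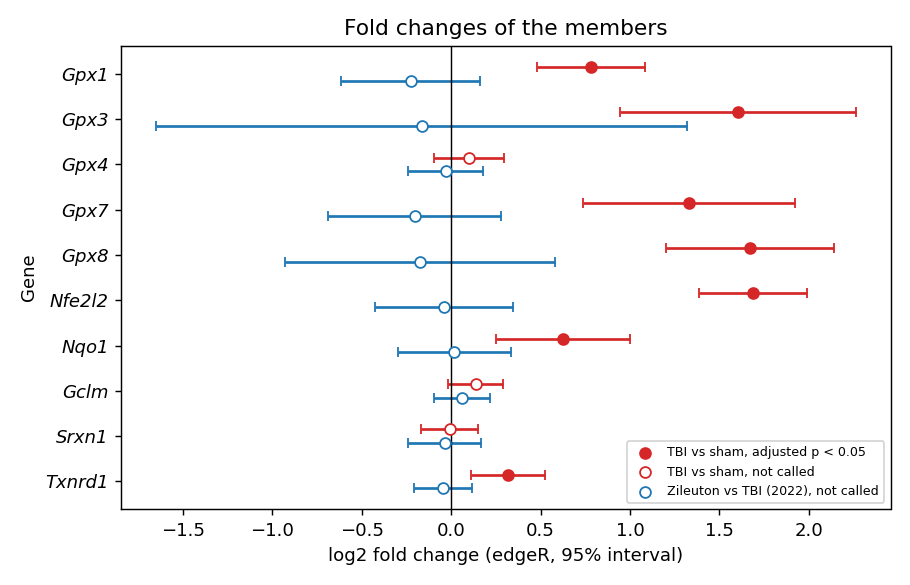
log2 fold change of each of the 10 genes with its 95% interval (horizontal axis) for TBI against sham and for zileuton against TBI of 2022; filled points passed an adjusted p of 0.05. The 7 filled points are all of TBI against sham and lie between 0.32 and 1.69, whereas all 10 intervals of the zileuton comparison include 0.

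The order of the levels per length is given as a description. In sham mice Gpx4 was highest at 150 ± 6.24 FPKM (SD, n = 3), followed by Gpx1 at 46.5 ± 1.03 and Srxn1 at 36.4 ± 1.22 FPKM, and none of these neighbours overlapped. Gclm and Gpx3 overlapped at 8.40 and 8.34 FPKM, and Txnrd1 followed at 7.48 FPKM. Gpx8, Nfe2l2, Gpx7 and Nqo1 were the lowest, at 4.87, 3.91, 3.08 and 2.91 FPKM, and each overlapped the next in that order. In TBI mice the first 3 places were the same, at 167, 82.9 and 37.5 FPKM. Gpx3, Gpx8 and Nfe2l2 stood next, at 26.2, 16.1 and 13.1 FPKM, above Txnrd1 at 9.68 and Gclm at 9.57 FPKM. Srxn1, Gpx3, Gpx8 and Nfe2l2 each overlapped the next in that order. Nqo1 was the lowest in both groups.

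The makeup of the peroxidase family changed with these levels. Gpx4 made up 69.0%, 71.5% and 70.0% of the summed FPKM of the listed Gpx genes in the sham mice, and 60.8%, 55.8% and 51.1% in the TBI mice. The share of Gpx1 was 21.5% to 21.9% in sham mice and 25.4% to 28.7% in TBI mice, and that of Gpx3 was 3.61% to 4.33% and 5.63% to 11.1%. The share of Gpx7 was 1.07% to 1.76% in sham mice and 2.20% to 3.06% in TBI mice, and that of Gpx8 was 1.93% to 2.60% and 4.55% to 5.87%. None of the shares of Gpx1, Gpx3, Gpx4, Gpx7 and Gpx8 overlapped between the groups. The shares were not tested, as the smallest exact permutation p in this design is 0.1. The summed level was 214 ± 5.58 FPKM in sham mice and 300 ± 45.9 FPKM in TBI mice (SD, n = 3). Gpx6 took at most 0.717% and Gpx2 at most 0.0310% of the sum in any mouse of this batch.

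**Figure D3:**
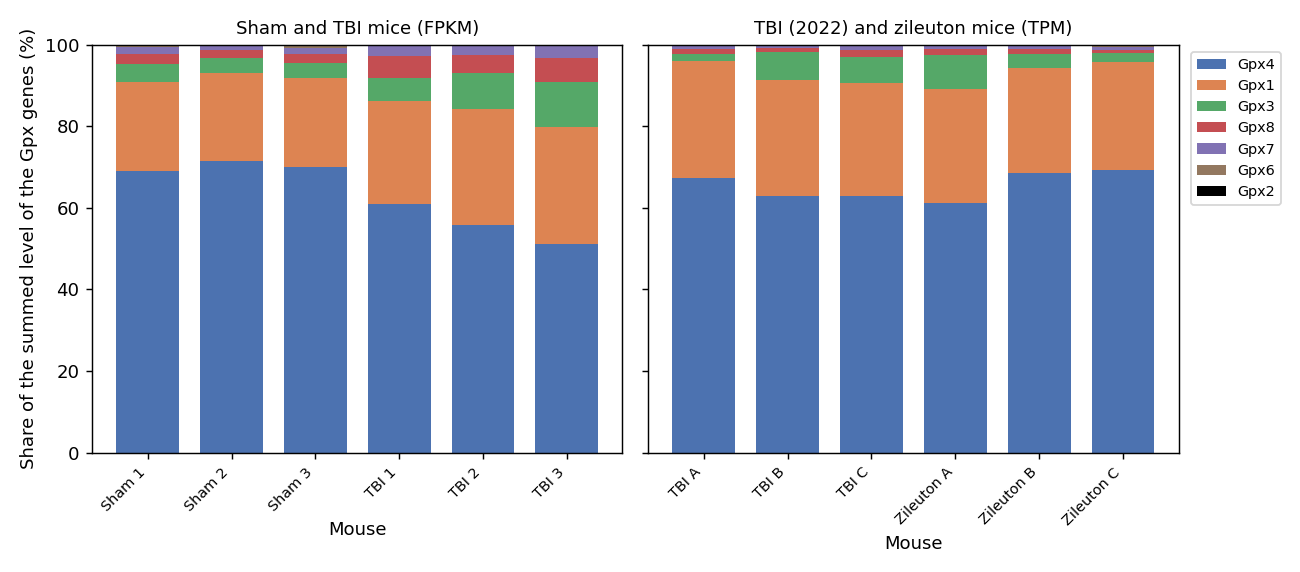
Share of each Gpx gene in the summed level of the Gpx genes (vertical axis, %) in each mouse, from FPKM in the 2018 batch (left) and TPM in the 2022 batch (right). Gpx4 takes 69.0% to 71.5% in the sham mice and 51.1% to 60.8% in the TBI mice, and in the 2022 batch its shares in TBI and zileuton mice overlap.

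Other genes of glutathione, thioredoxin and Nrf2 biology were counted in 9 lists of 106 genes, of which 98 were tested. In these lists 35 genes were higher and 6 lower after TBI, 41.8% of those tested, against 28.0% of all genes. The lists were chosen with earlier results of these data known, so this excess is not independent evidence. Of the 16 other Nrf2 target enzymes, 11 were higher and none lower, with a median log2 fold change of 0.62. The largest rise was that of Hmox1, heme oxygenase 1, from 2.75 ± 0.635 to 38.3 ± 6.30 FPKM (SD, n = 3; log2 fold change 3.75, standard error 0.197, adjusted p = 8.68e-06, edgeR quasi-likelihood test). The 95% interval of its fold change, 9.87 to 18.4, lay above those of Nqo1, Gclm, Srxn1 and Txnrd1.

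Of 12 tested partners and regulators of Nrf2, 2 were higher and 2 lower. That share is near the 28.0% of all genes called and is no result about the list. Maff, a small Maf partner, rose with a log2 fold change of 1.30 (adjusted p = 0.00685) and Cul3, the scaffold of the Keap1 ubiquitin ligase, fell by 0.33 on the log2 scale (adjusted p = 0.00492). The list's median log2 fold change was −0.06. The count of 4 became 7 by DESeq2, 6 with length and GC trends removed and 2 by the equal-variance test on FPKM.

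Genes of glutathione synthesis and recycling were 5 higher and 1 lower of 11, where 28.0% of all genes were called in either direction. Ggt5, a gamma-glutamyl transferase that the study listed from these samples, rose from 0.325 to 0.765 FPKM (log2 fold change 1.18, adjusted p = 0.00571). Ggt7, of the same family, fell from 36.9 to 30.3 FPKM (log2 fold change −0.34, adjusted p = 0.0187). The count of 6 was 3 without sham mouse 3 and by the equal-variance test. Of 19 tested glutathione transferases 5 were higher and 1 lower, a share near that of all genes and no result about the list. Mgst1, a microsomal transferase, rose from 2.95 ± 0.312 to 12.4 ± 1.55 FPKM (SD, n = 3; log2 fold change 2.02, adjusted p = 1.90e-05, edgeR) and Mgst3 fell from 74.2 to 60.3 FPKM (log2 fold change −0.35, adjusted p = 0.0464). The count of transferases called was 2 without sham mouse 1 or sham mouse 3, 3 without TBI mouse 1 and 3 by the equal-variance test.

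Of 15 thioredoxins, peroxiredoxins and glutaredoxins 4 were higher and 1 lower. That share is near the 28.0% of all genes called and is no result about the list. Prdx6, a peroxiredoxin that also reduces phospholipid peroxides, rose from 38.5 ± 5.18 to 110 ± 11.0 FPKM (SD, n = 3; log2 fold change 1.46, adjusted p = 4.86e-05, edgeR). Glrx2, mitochondrial glutaredoxin, fell by 0.29 on the log2 scale (adjusted p = 0.0236). The count of 5 fell to 3 without sham mouse 1, sham mouse 2 or TBI mouse 3. Of 4 superoxide dismutases and catalase, 2 were higher, and Sod3, the extracellular dismutase, rose from 2.32 to 5.00 FPKM (log2 fold change 1.05, adjusted p = 0.00173).

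Of 10 genes of selenoprotein synthesis and selenium supply 2 were higher, where 28.0% of all genes were called in either direction. With so few genes that share is no result about the list. Selenop, the secreted selenium carrier, rose from 66.7 ± 10.1 to 172 ± 25.0 FPKM (SD, n = 3; log2 fold change 1.31, adjusted p = 0.000253, edgeR). The list's count was 1 in 5 of the 6 fits without 1 mouse and 4 with libraries scaled by their totals. Of 10 tested genes of lipid peroxidation and ferroptosis 4 were higher and 1 lower. Slc40a1, the iron exporter ferroportin, rose with a log2 fold change of 1.81 (adjusted p = 0.000137) and Tfrc, the transferrin receptor, fell by 0.82 on the log2 scale (adjusted p = 0.00458). The count of 5 was 3 by the equal-variance test. Of the remaining peroxidases, Gpx6 was tested and did not pass (adjusted p = 0.270).

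The response element of Nrf2 was looked for in the RefSeq promoter windows of the 10 genes, since they include its targets. The core searched was TGACNNNGC on either strand, and each window runs from 250 bases before to 50 after a start site (GRCm38.p6, a different build from the GRCm39 of the submitters' notes). It was found in 4 of the 10 genes, against 14.0% of 27025 genes, and in 4 of their 15 windows against 12.4% of 32851 windows. The matches are given 5′ to 3′ on the gene's strand, with the core in capitals. It starts 240 bases before the start site of Nfe2l2, and its reverse complement starts 134 bases before that of Gclm, 29 bases into that of Srxn1 and 92 bases before 1 of 3 start sites of Txnrd1.
Nfe2l2, chr2:75704885-75704913, minus strand: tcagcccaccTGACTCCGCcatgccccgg
Gclm, chr3:122245413-122245441, plus strand: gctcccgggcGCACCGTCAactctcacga
Srxn1, chr2:152105542-152105570, plus strand: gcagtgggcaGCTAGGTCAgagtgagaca
Txnrd1, chr10:82859104-82859132, plus strand: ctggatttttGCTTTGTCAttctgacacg
Of these 4 genes, Nfe2l2 and Txnrd1 were higher after TBI and Gclm and Srxn1 did not pass the test. No promoter window of Nqo1 or of the Gpx genes held these letters, which says nothing of sites farther away. Other spellings of the element were not searched in any of the 10 genes, and binding of Nrf2 at the matches was not tested.

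The tissue was bulk tissue, in which fewer cells of a type and less RNA per cell cannot be told apart. The libraries held 42929862 to 48684674 counts in 2018 and 27845562 to 35453257 in 2022. The 2018 counts are whole and those of 2022 are estimated, so these totals may not be in like units. The injury label was checked by Gfap and Cd68, markers of reactive astrocytes and phagocytes, which rose 13.2-fold and 12.3-fold (log2 fold changes 3.72 and 3.62). All 11 microglia and macrophage markers were higher after TBI, with a summed CPM of 333 to 394 in sham mice and 1639 to 2466 in TBI mice. Of 6 fibroblast and meninges markers 5 were higher, with 131 to 135 and 184 to 757 CPM. All 6 tested monocyte and neutrophil markers were higher (0.735 to 1.81 and 22.5 to 77.9 CPM), as were 6 of 7 astrocyte, 4 of 6 oligodendrocyte and 3 of 5 endothelial markers. Of 8 neuron markers 3 were lower, as were 3 of 5 red blood cell markers. Choroid plexus markers were at 1071 CPM in sham mouse 1 and at 18.4 and 54.9 in the other sham mice, against 1153 to 1332 in TBI mice. No marker was at 0 in every library of 2018.

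Of the 10 genes, only Nfe2l2 and Gpx8 had the same full order of mice as a marker sum within a batch. Nfe2l2 stood in the same order as the microglia and macrophage sum over the 6 mice of 2018, and again over the 6 mice of 2022. In 2018 the gene and the sum each separated TBI from sham mice, which fixes part of that order. Gpx8 stood in the same order as the fibroblast sum over the 6 mice of 2022. These were the 3 matches of order among 180 pairs of a gene and a marker list, 90 in each batch, and they were noted after the values were seen. Among TBI mice of 2018 Gpx7 and Gpx8 were highest in mouse 3 and lowest in mouse 2, as were the fibroblast markers, at 757, 432 and 184 CPM in mice 3, 1 and 2. Gpx4, which did not pass the test against sham, had the same order, at 310, 281 and 257 CPM, so this order was not particular to Gpx7 and Gpx8. Gpx3 in sham mouse 1, with its high choroid plexus markers, was at 16.7 CPM, near the 15.1 and 14.5 CPM of the other sham mice. The part of these cell types in the changes of the 10 genes was not tested.

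**Figure D4:**
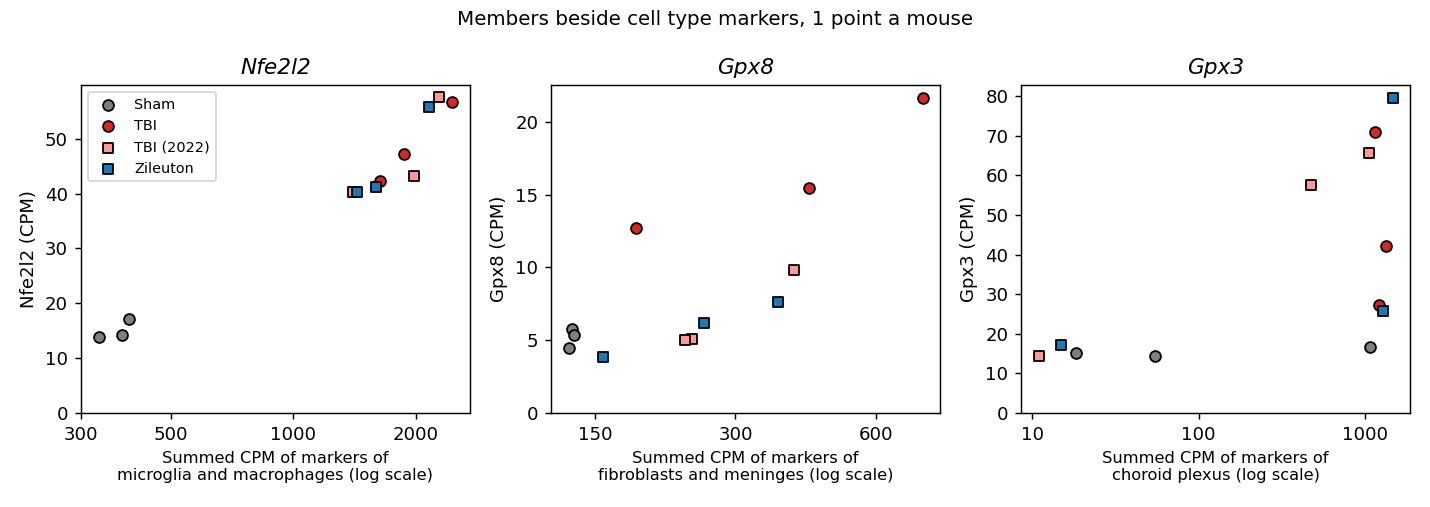
CPM of Nfe2l2, Gpx8 and Gpx3 (vertical axes) against the summed CPM of markers of microglia and macrophages, fibroblasts and meninges, and choroid plexus (horizontal log axes); each point is 1 of the 12 mice, and each batch was scaled on its own. Nfe2l2 has the order of the microglia sum within each batch, and the Gpx3 values of 14.3 and 17.3 CPM in 2022 belong to the 2 mice whose choroid plexus sums are 10.9 and 14.8 CPM.

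Between zileuton-treated and TBI mice of 2022, none of the 10 genes passed the test. Of all 17363 genes tested, 0 (0.0%) passed an adjusted p of 0.05 by edgeR, 26 did so by DESeq2, and 1186 genes (6.83%) had an unadjusted p under 0.05. None of the 10 genes had an unadjusted p under 0.05 either, and none had groups that did not overlap in CPM, which 13.6% of all genes had. The lowest unadjusted p of the 10 was 0.217 by edgeR, for Gpx1, and their log2 fold changes ran from −0.23 to 0.06. Their signs depended on the scale: Gpx4, Nfe2l2, Srxn1 and Txnrd1 were below 0 on counts and above 0 in each fit on TPM.

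**Figure D5:**
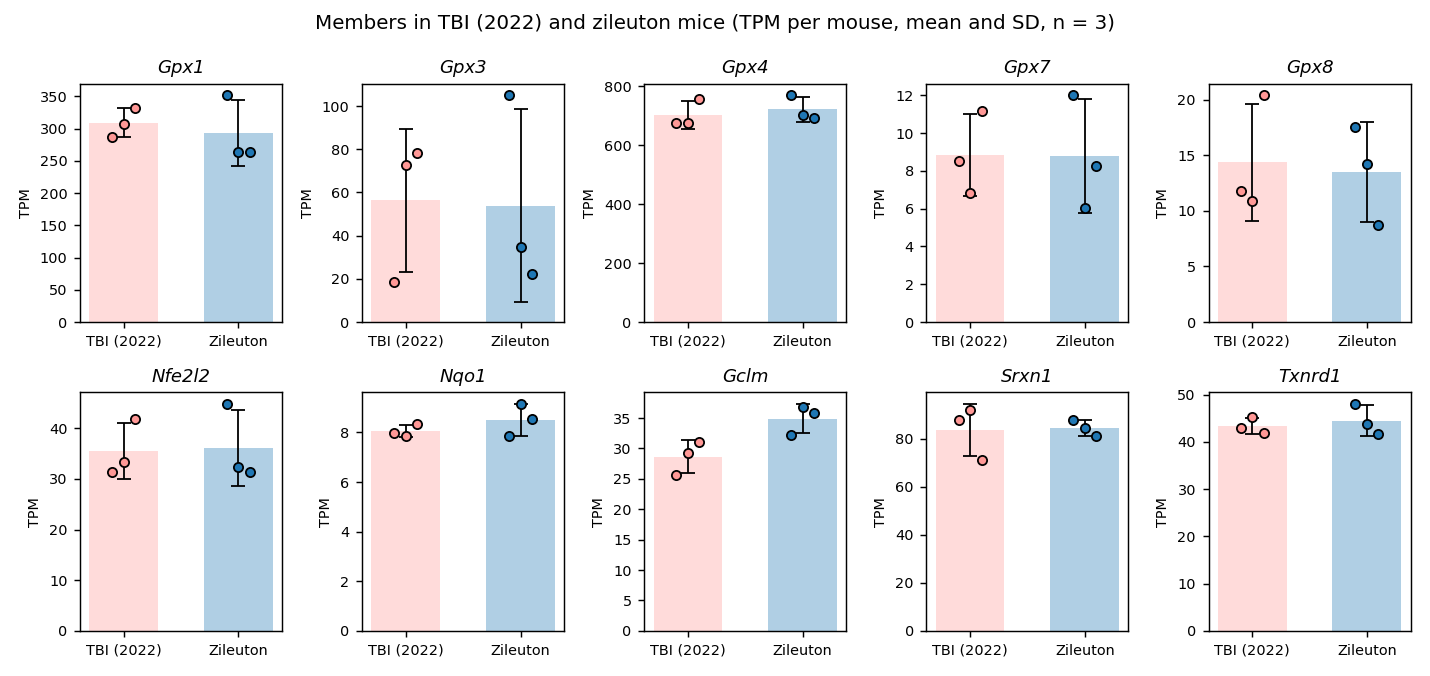
Level of each of the 10 genes in TPM (transcripts scaled for length and to a fixed library total, vertical axes from 0) in 3 TBI and 3 zileuton mice of 2022; points are mice, bars are means and error bars are SD. The groups overlap in every panel except Gclm, at 25.7 to 31.1 TPM in TBI mice and 32.2 to 36.8 TPM in zileuton mice.

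Gpx3 had the widest 95% interval of the 10 genes. It was at 18.3, 72.6 and 78.3 TPM in TBI mice A, B and C and at 105, 34.6 and 22.1 TPM in zileuton mice A, B and C. Each group held both a high and a low mouse. The log2 fold change was −0.17 with a 95% interval of −1.65 to 1.32, so that a 2-fold change in either direction lies within it. TBI mouse A and zileuton mouse C, with the lowest Gpx3, nearly lacked choroid plexus markers (10.9 and 14.8 CPM summed, against 476 to 1473 in the other 4 mice). Zileuton mouse B, with 1278 CPM of these markers, had 25.8 CPM of Gpx3. Without TBI mouse A and zileuton mouse C the log2 fold change of Gpx3 was −0.23, and without zileuton mouse A it was −1.09. The part of choroid plexus in Gpx3 was not tested.

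Gpx1 was at 288, 308 and 332 TPM in TBI mice and at 352, 264 and 264 TPM in zileuton mice. Zileuton mouse A was the highest of all 6 mice and the other zileuton mice were the lowest. Zileuton mice B and C had nearly the same TPM but 94.8 and 74.4 CPM, so TPM and counts do not stand in a fixed ratio in this batch. The log2 fold change from the counts was −0.23 (95% interval −0.61 to 0.16). Without zileuton mouse A it was −0.45, with an unadjusted p of 0.00390 and an adjusted p of 0.320 by edgeR. Gpx4 was at 675, 676 and 758 TPM and at 771, 703 and 693 TPM (log2 fold change −0.03, 95% interval −0.24 to 0.18, and 0.04 on log2 TPM). Its groups overlapped almost wholly.

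Gpx7 was at 8.52, 6.83 and 11.2 TPM in TBI mice and at 12.01, 6.05 and 8.23 TPM in zileuton mice (log2 fold change −0.21, 95% interval −0.69 to 0.28). Gpx8 was at 11.8, 10.9 and 20.4 TPM in TBI mice and at 17.6, 14.2 and 8.69 TPM in zileuton mice (log2 fold change −0.17, 95% interval −0.93 to 0.58). In both genes each group held high and low mice. Counts per mouse were at most 276 for Gpx8 and 165 for Gpx7.

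Nfe2l2 was at 31.3, 33.4 and 41.9 TPM in TBI mice and at 44.9, 32.3 and 31.5 TPM in zileuton mice. The groups covered the same range, and the log2 fold change was −0.04 (95% interval −0.42 to 0.35, and 0.02 on log2 TPM). Nqo1 was at 7.98, 7.87 and 8.32 TPM and at 7.84, 9.13 and 8.56 TPM (log2 fold change 0.02, 95% interval −0.30 to 0.34, and −0.02 without TBI mouse A and zileuton mouse C).

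Srxn1 was at 88.0, 91.8 and 71.3 TPM and at 87.7, 84.3 and 81.1 TPM (log2 fold change −0.04, 95% interval −0.24 to 0.17, and 0.02 on log2 TPM). Txnrd1 was at 43.0, 45.3 and 41.9 TPM and at 48.1, 43.8 and 41.6 TPM (log2 fold change −0.05, 95% interval −0.21 to 0.12, and 0.03 on log2 TPM). Neither gene separated the groups.

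Gclm was at 25.7, 29.3 and 31.1 TPM in TBI mice and at 32.2, 36.8 and 35.8 TPM in zileuton mice. On this scale every zileuton mouse was above every TBI mouse. On counts it was at 47.4, 51.3 and 49.8 CPM and at 51.1, 51.2 and 52.3 CPM, and the groups overlapped. The log2 fold change was 0.06 (95% interval −0.10 to 0.21, adjusted p = 0.849) by edgeR on counts and 0.28 by limma on log2(TPM + 1) (adjusted p = 0.734, unadjusted p = 0.0282).

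The makeup of the peroxidase family did not separate the groups of 2022. Gpx4 took 67.3%, 62.8% and 63.0% of the summed TPM in TBI mice and 61.2%, 68.6% and 69.3% in zileuton mice. Gpx3 took 1.83% to 6.74% in TBI mice and 2.21% to 8.34% in zileuton mice. Gpx5 was listed at 0 TPM in all 6 mice. The order of the levels was the same in both groups, from Gpx4 at 703 and 722 TPM over Gpx1 at 309 and 293 TPM to Nqo1 at 8.06 and 8.51 TPM. In none of the 9 lists did a gene pass the test in this comparison, and list medians of log2 fold change ran from −0.08 to 0.38, the highest from the single tested gene Gpx6.

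No marker gene passed the test in this comparison. Microglia and macrophage markers summed to 1404 to 2289 CPM in TBI mice and 1434 to 2162 CPM in zileuton mice, and fibroblast markers to 233 to 401 CPM and 156 to 370 CPM. Red blood cell markers summed to 216 to 342 CPM in TBI mice and 191 to 206 CPM in zileuton mice, and 4 of the 5 had an unadjusted p under 0.05. Of 8 monocyte and neutrophil markers 1 was at 0 in all 6 libraries.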

How the data were processed

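Counts and values were used as deposited by the authors. In 2018 these are whole counts per gene and FPKM that the authors computed as counts over library total and gene length. Of the 2018 counts from 1 to 20, 62.3% to 64.4% were even in each library. Whether both reads of a pair were counted there was not tested, so a count need not be 1 fragment. In 2022 they are estimated counts, not whole in 32.2% of nonzero values and rounded here, and TPM deposited by the authors. The submitters' processing notes name HISAT2, featureCounts, Subread, DESeq2 and GRCm39. How the estimated counts were made is not given in the sources used here, nor is strand.

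Symbols were matched to Ensembl IDs (34808 of 35697 and 52081 of 55637). Each batch was fitted on its own with edgeR 4.0.16 in R 4.3.3 (TMM scaling, filterByExpr, glmQLFit, glmQLFTest), 3 mice against 3, with no covariate. Standard errors are the log2 fold change over the root of F. The 2022 columns carry group names but numbers that match no label, so its mice are lettered A to C within a group. Only the columns matched to these groups were read, and other columns were not searched for. DESeq2 1.42.0 and limma 3.58.1 were alternatives, as was an equal-variance test on FPKM or TPM with adjusted p-values (the study names a two-sided test with a p threshold, and neither its scale, its variance nor an adjustment). On simulated counts for TBI against sham, 70.0% of 2-fold and 96.9% of 4-fold changes were recovered with 2.96% false calls. For zileuton these were 71.1%, 93.8% and 4.22%. In the simulation for TBI only 100 genes changed 2-fold and 97 changed 4-fold of 19216 tested, far fewer than were called in the data. The simulated spread of each gene followed the trend over all genes, so these rates need not hold for the real genes. Replicates were checked for duplicate libraries and none was found.

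The members and lists were chosen with earlier results of these data known. Named genes are the 10 members, Gfap and Cd68, and from each list the largest rise and fall among genes with an adjusted p under 0.05 and no overlap between groups. Overlapping genes, named with their counts, and coding sequences are from GENCODE M21; other tries were other scalings, filters, pseudocounts, tools and left-out mice. Promoters are from RefSeq (GRCm38.p6). Figures were drawn with matplotlib 3.10.9.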

Additional observations from a re-analysis of the deposited data

How the results depend on the processing

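Against sham, 7 members were called in 8 of the 11 alternatives that kept all 6 mice, with Gclm in place of Txnrd1 when length and GC trends were removed. Limma without a filter called 6, the lost call being Txnrd1. The equal-variance test on FPKM called 3 members (Nfe2l2, Nqo1 and Gclm, the last not called in the main fit) and 2625 genes, against 5479. Without 1 mouse in turn, 5 to 7 members and 3848 to 4956 genes were called. Same-numbered mice did not deviate together (correlations −0.02, −0.09 and −0.03 in 2018 and −0.28, 0.06 and −0.28 in 2022), so the numbers were not taken to pair them. With a replicate block 6 members and 4337 genes were called, the lost call being Nqo1. For zileuton, genes called were 26 by DESeq2, 4 with no filter, 4 and 3 by limma on log2(TPM + 1) and log2(TPM + 0.1), and 0 otherwise. Genes with an unadjusted p under 0.05 were 729 with a replicate block, 680 without TBI mouse A and zileuton mouse C, and 689 to 1909 without 1 mouse. Members with such a p were 1 by the equal-variance test and by each limma fit (Gclm) and 0 to 1 without 1 mouse. The fit without both mice and that with length and GC trends removed were chosen after seeing the data.

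Signs turned only in fold changes that were not called. In TBI against sham, Srxn1 was 0.044 by library totals and the equal-variance test, 0.042 and 0.041 by limma (pseudocounts 0.1 and 1), and −0.047 to 0.028 without 1 mouse, and Gpx4 was −0.034 with length and GC trends removed. For zileuton the equal-variance test gave 0.039 for Gpx4, 0.027 for Nfe2l2, 0.011 for Srxn1 and 0.035 for Txnrd1. Limma gave 0.0395 for Gpx4 with every setting and, with pseudocounts 0.1 and 1, 0.019 and 0.0187 for Nfe2l2, 0.0186 and 0.0184 for Srxn1, and 0.0333 and 0.0327 for Txnrd1. Gpx4 was 0.096 with length and GC trends removed, and Nqo1 was −0.024 without both mice. Without 1 mouse the ranges were −1.09 to 0.21 for Gpx3, −0.083 to 0.053 for Gpx4, −0.40 to 0.21 for Gpx8, −0.20 to 0.13 for Nfe2l2, −0.042 to 0.087 for Nqo1 and −0.0925 to 0.045 for Srxn1. The cause was not tested. The 95% interval of Gpx3 under zileuton includes a 2-fold change in either direction, with values from 14.3 to 79.6 CPM among the 6 mice.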

Other observations

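In the 9 lists, 8 of 98 tested genes (8.16%) had an unadjusted p under 0.05 between zileuton and TBI mice of 2022, against 6.83% of all genes tested, and 13 of the 98 (13.3%) had groups that did not overlap in CPM, against 13.6% of all genes. Both shares are near those of all genes and are no result about the lists. The 8 genes were Txn1 (thioredoxin, log2 fold change −0.40, standard error 0.122), Gsta4 (−0.32), Glrx5 (−0.29), Prdx5 (−0.19), Sephs1 (0.20), Secisbp2l (0.21), Abcc1 (0.26) and Gstp2 (1.73, at 0.377 and 1.28 CPM), listed after their values were seen. All had an adjusted p of 0.713 by edgeR, so none passed the threshold.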
